A study of Homo sapiens with 2 samples.

Results

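The genes described here are 10 regulators of apoptosis: the prosurvival BCL2 proteins MCL1 and BCL2L1, the inhibitors of apoptosis (IAP) BIRC2, BIRC3 and XIAP, the effectors BAX and BAK1, and the BH3-only genes BID, BBC3 and PMAIP1. They were chosen by symbol, through the Entrez gene number of each row, and all 10 were found among the 40392 genes of the tables. RNA sequencing was carried out on total RNA of KYSE30, an established line of esophageal squamous cell carcinoma cells, in 2 libraries. The RHCG library came from cells stably transfected with a vector for human RHCG, an ammonia and ammonium transporter of normal esophageal epithelium. The mock library came from stable transfectants carrying pIRES2-EGFP. The labels do not say whether either line is 1 clone or a pool, which promoter drives the transgene, or whether both vectors share a backbone. With 1 library per group there was no replicate spread and no test, so every difference below describes these 2 libraries. Fewer cells of a kind and less RNA per cell cannot be told apart in such bulk RNA.

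Apoptosis through mitochondria is set by the balance within the BCL2 family. BAX and BAK1 form the pores that release cytochrome c, MCL1 and BCL-XL (the long product of BCL2L1) hold them in check, and BH3-only proteins such as BID, PUMA (BBC3) and NOXA (PMAIP1) counter that hold. Downstream, XIAP binds and inhibits caspases, while cIAP1 (BIRC2) and cIAP2 (BIRC3) are ubiquitin ligases of the TNF receptor complex that restrain cell death and the non-canonical NF-kB pathway. Squamous carcinomas of the esophagus are known for recurrent gains that include the neighbouring BIRC2 and BIRC3 genes.

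The starts of the BIRC2 and BIRC3 genes are printed because each held a match to one of 3 motifs searched, and because they lie next to each other on chromosome 11. Each window runs from 250 bases before to 50 bases after a RefSeq start on GRCh38.p14, 5′ to 3′ on the gene's strand, and capitals mark the match. The windows are chr11:102346964-102347263 on the plus strand for BIRC2 and chr11:102317234-102317533 on the plus strand for BIRC3.
BIRC2: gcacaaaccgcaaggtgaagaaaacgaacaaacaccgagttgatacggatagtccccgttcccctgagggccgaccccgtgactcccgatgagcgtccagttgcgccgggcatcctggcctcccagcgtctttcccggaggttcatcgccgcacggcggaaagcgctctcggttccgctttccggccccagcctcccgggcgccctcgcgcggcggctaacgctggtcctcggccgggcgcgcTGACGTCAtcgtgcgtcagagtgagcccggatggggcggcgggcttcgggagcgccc
BIRC3: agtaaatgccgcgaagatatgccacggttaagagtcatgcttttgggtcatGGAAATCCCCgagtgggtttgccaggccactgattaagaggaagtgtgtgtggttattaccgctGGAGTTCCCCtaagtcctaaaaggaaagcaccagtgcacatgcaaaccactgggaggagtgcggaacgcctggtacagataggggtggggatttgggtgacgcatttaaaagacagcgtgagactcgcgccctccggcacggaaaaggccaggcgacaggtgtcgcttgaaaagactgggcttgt

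In BIRC2 the capitals are the cAMP response element TGACGTCA, a palindrome that begins 7 bases before the start. A second annotated start of BIRC2 places the same letters 167 bases before it. In BIRC3 they are 2 matches to the kappa-B motif of NF-kB, both on the opposite strand, beginning 199 and 135 bases before the start. Of 35116 promoter windows of 300 bases, searched on both strands, 1.85% held TGACGTCA, 5.91% a kappa-B motif and 3.62% the C/EBP-ATF motif TGATGNAA. No 2 matches overlapped. Windows were found for 9 of the 10 genes, 17 windows in all, and the 14 windows of BBC3, PMAIP1, BAX, BAK1, BID, XIAP and BCL2L1 held no match. No window was found for MCL1. A match describes letters only and is not evidence of binding.

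RHCG itself was at 413 RPKM (reads per kilobase of transcript, scaled to library depth) in the RHCG library and was listed at 0 in the mock library, as the labels place it. Depth scaling corresponded to about 22100000 reads in the RHCG library and about 18900000 in the mock library, so 1 kb of transcript at 1 RPKM stood for about 22.1 and 18.9 reads. Of 9 epithelial markers, not all of them particular to squamous cells, 8 were measured, with log2 ratios above 0 for 4 and below 0 for 4. Of these 2 were more than 2-fold lower and 0 more than 2-fold higher, and KRT5 was listed at 0 in both libraries. KRT6A was at 3.51 RPKM in the RHCG library and 38.8 in the mock library and KRT13 at 164 and 407 RPKM. In the same order TP63 was at 14.4 and 26.2 RPKM, EPCAM at 120 and 66.5 RPKM and DSG3 at 12.6 and 7.01 RPKM. Summed levels of this epithelial list were 583 RPKM in the RHCG library and 879 in the mock library, of which KRT13 alone made up 164 and 407 RPKM. Of 7 fibroblast markers 3 were listed above 0 (summed 6.90 RPKM in the RHCG and 8.97 in the mock library), of 5 endothelial markers 1 (17.2 and 16.7 RPKM) and of 6 leukocyte markers 1 (8.89 and 15.4 RPKM), with DCN, PECAM1 and PTPRC at 0 in both. The part of such markers in the results was not tested.

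Of the 10 genes, 8 had log2 ratios (RHCG over mock) above 0 and 2, the effectors BAX and BAK1, lay below 0. The ratio was taken as log2((RHCG + 1)/(mock + 1)) in RPKM, and a value of at least 1 was called higher and of at most −1 lower. By that rule 1 gene, BIRC2, was called higher, against 2.74% of the 12857 measured genes, and 0 were called lower, against 3.30%. A looser rule of 1.5-fold added BAX as lower and nothing as higher, against 11.5% of all measured genes lower and 11.3% higher. The median ratio of the 10 genes was 0.38, beside −0.01 over all measured genes, of which 49.5% lay above 0 and 77.2% lay within 1.5-fold on the same scale. Of the 10 genes, 8 were within 1.5-fold on this scale, on which 1 RPKM is added to each value; the plain ratios of BBC3 and PMAIP1, given below, were just above 1.5.

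**Figure D1:**
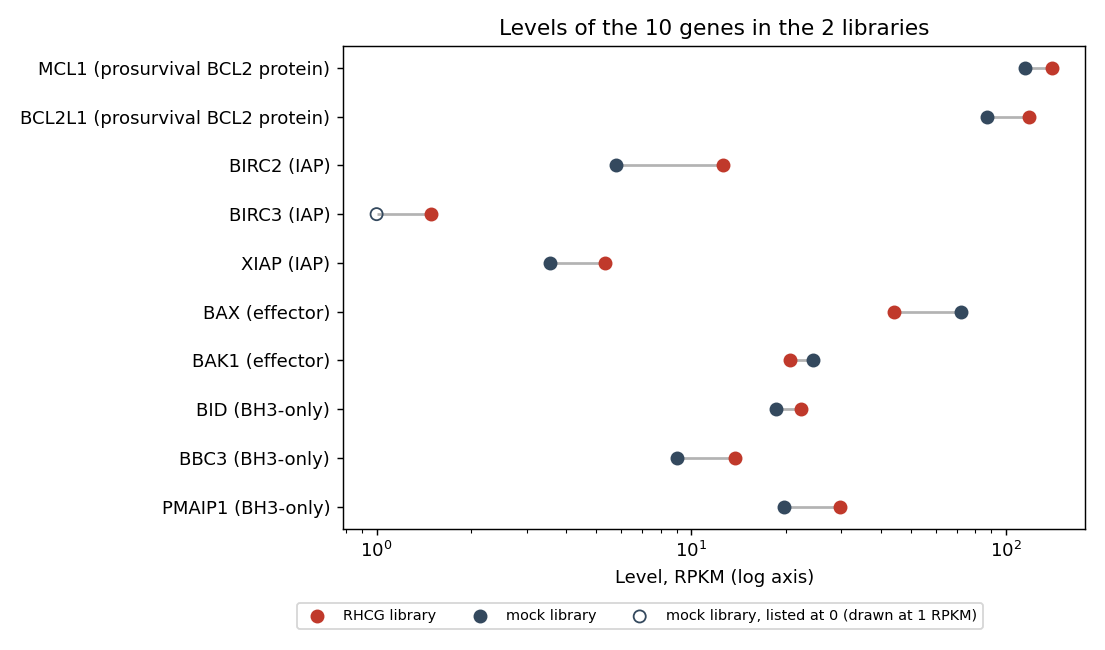
Level of each of the 10 genes in RPKM on a log axis, with 1 point per library and no replicates. The red point (RHCG library) lies right of the dark point (mock library) in every row but BAX and BAK1, and the open circle marks BIRC3, listed at 0 in the mock library and drawn at 1 RPKM.

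MCL1, a short-lived prosurvival protein that binds BAK1, BIM and NOXA, was the most abundant of the 10 in both libraries. It was at 140 RPKM in the RHCG library and 115 RPKM in the mock library, at or above 95.7% and 94.6% of the measured genes. These levels stood for about 12147 and 8598 reads, and the plain ratio was 1.21-fold, with an approximate 95% exact (Clopper-Pearson) counting interval of 1.18 to 1.25 and a log2 ratio of 0.28. Such intervals cover counting error only, not the difference between cultures, clones or preparations.

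BCL2L1, the gene of BCL-XL, was second in both. It was at 119 RPKM in the RHCG library and 87.1 RPKM in the mock library, a plain ratio of 1.36 (counting interval 1.31 to 1.42) and a log2 ratio of 0.44. Both prosurvival genes were thus somewhat higher in the RHCG library and neither passed 1.5-fold. The table holds 1 value per gene, so the long and short splice forms of BCL2L1 and MCL1, which act in opposite ways, were not separated. Of the 50-base windows along the BCL2L1 transcript 34.3% also lie in ABALON, an RNA annotated on the opposite strand, and whether strand was used in counting is not given in the sources used here.

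BIRC2 had the highest log2 ratio of the 10. It was at 12.6 RPKM in the RHCG library and 5.77 RPKM in the mock library, about 1130 and 444 reads. Its plain ratio was 2.18-fold (counting interval 1.96 to 2.44) and its log2 ratio was 1.01, above that of 97.3% of measured genes. The call sits on the threshold: the log2 ratio was 0.999 with median-of-ratios scaling, 0.996 with trimmed mean scaling and 0.875 with a trend in GC content and length removed, all under 1. With 0.1 RPKM added to each value in place of 1 RPKM, it was 1.11.

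BIRC3, whose product is the cIAP most closely tied to NF-kB activity, was the least abundant. It was at 1.49 RPKM in the RHCG library and listed at 0 in the mock library, where a value of 0 may stand for 1 RPKM or less. No fold can be given for it, and its log2 ratio of 0.32 rests on setting the mock value to 1 RPKM. The BIRC2 and BIRC3 transcripts share 11 windows of 50 bases, 0.274% of those along BIRC2.

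XIAP, the direct caspase inhibitor, was at 5.31 RPKM in the RHCG library and 3.56 RPKM in the mock library. On a transcript of 8591 bases these low levels stood for about 1007 and 580 reads, and the plain ratio was 1.49-fold (counting interval 1.34 to 1.65). The log2 ratio was 0.47. BIRC2 and XIAP had the RHCG library above the mock library, as did BIRC3 with its listed 0 in the mock library set to 1 RPKM. XIAP and BIRC3 were the 2 least abundant of the 10 genes in both. Of the XIAP windows 4.98% lie in transcripts of other genes, the pseudogene XIAPP1 first among them, which was listed at 0 in both libraries.

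BAX, the effector that moves from cytosol to mitochondria, was the member furthest below 0. It was at 44.1 RPKM in the RHCG library and 71.8 RPKM in the mock library, about 1322 and 1847 reads. Its plain ratio was 0.614 (counting interval 0.572 to 0.660), or 1.63-fold lower in the RHCG library, with a log2 ratio of −0.69. A lower ratio was found for 8.53% of measured genes. It passed 1.5-fold but not 2-fold.

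BAK1, the effector that resides in the outer mitochondrial membrane, was at 20.5 RPKM in the RHCG library and 24.4 RPKM in the mock library. The plain ratio was 0.841 (counting interval 0.769 to 0.920) and the log2 ratio −0.24, with 30.5% of measured genes lower still. Both effectors lay on the same side, BAX further out. A part of the BAK1 transcript, 13.3% of its 50-base windows, is repeated in the pseudogene BAK1P1, which was listed at 0 in both libraries.

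Among the BH3-only genes, PMAIP1, whose product NOXA engages MCL1, was at 29.6 RPKM in the RHCG library and 19.7 RPKM in the mock library. Its plain ratio was 1.504 (counting interval 1.37 to 1.65) and its log2 ratio 0.57. BBC3, whose product PUMA binds all prosurvival family members, was at 13.7 RPKM in the RHCG library and 9.02 RPKM in the mock library, a plain ratio of 1.52 (1.32 to 1.75) and a log2 ratio of 0.56. These 2 ratios were next below that of BIRC2. BID, which links death receptors to mitochondria once caspase 8 cleaves it, was at 22.3 RPKM in the RHCG library and 18.6 RPKM in the mock library, a plain ratio of 1.20 (1.10 to 1.31) and a log2 ratio of 0.25. All 3 of these BH3-only genes lay above 0, opposite to BAX and BAK1. That contrast covers the genes chosen here. In the list of other BH3-only genes and BOK, 5 were measured, with 2 above 0 and 3 below. BOK was at 9.77 RPKM in the RHCG library and 8.11 in the mock library (log2 ratio 0.24).

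**Figure D2:**
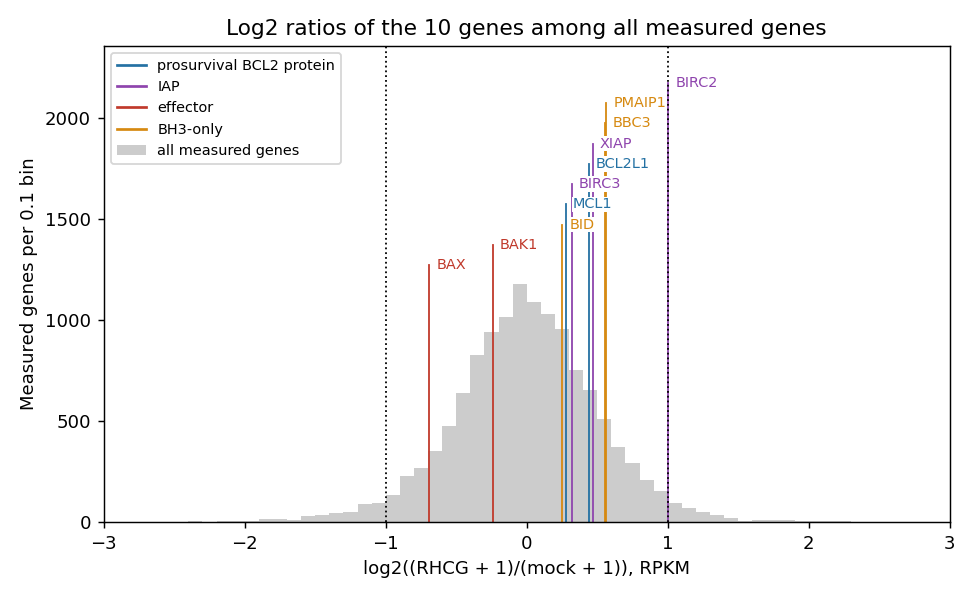
Histogram of log2 ratios of RHCG over mock for the 12857 measured genes in bins of 0.1 (values beyond the axis not shown), with a vertical line for each of the 10 genes coloured by role and dotted lines at the 2-fold rule. BIRC2 stands at 1.01 on the upper dotted line, BAX at −0.69, and the other 8 genes lie between −0.24 and 0.57.

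For 9 genes listed above 0 in both libraries the interval of the plain ratio excluded 1, with 7 higher and 2 lower. The same was found for 38.0% (higher) and 36.3% (lower) of the 11624 genes with such an interval, 74.3% in either direction. The intervals rest on approximate read numbers, and some would exclude 1 through counting error alone.

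Set against each other within a library, the levels per length of opposing genes differed between the libraries. MCL1 and BCL2L1 together were at 259 RPKM, against 64.7 RPKM of BAX and BAK1, in the RHCG library, a ratio of 3.999. In the mock library they were at 203 and 96.2 RPKM, a ratio of 2.10. The BCL2L1 to BAX ratio was 2.69 in the RHCG library and 1.21 in the mock library, and that of MCL1 to BAK1 was 6.82 and 4.73. Against the BH3-only genes the ratios of the libraries were closer: MCL1 and BCL2L1 over BID, BBC3 and PMAIP1 gave 3.93 in the RHCG library and 4.28 in the mock library, and MCL1 over PMAIP1 gave 4.72 and 5.86. BID, BBC3 and PMAIP1 summed were level with BAX and BAK1 in the RHCG library (ratio 1.02) and below them in the mock library (0.492). Other BH3-only genes were left out of that sum. Among these BAD was at 37.2 RPKM in the RHCG library and 39.8 in the mock library, and BIK at 22.6 and 18.3 RPKM. These are RNA levels, and no protein was measured.

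The order of the 10 genes by level was nearly the same in both libraries. MCL1, BCL2L1 and BAX were the top 3 and BBC3, BIRC2, XIAP and BIRC3 the bottom 4 in each. In between, PMAIP1, BID and BAK1 followed in that order in the RHCG library (29.6, 22.3 and 20.5 RPKM), and BAK1, PMAIP1 and BID in the mock library (24.4, 19.7 and 18.6 RPKM). The 3 middle genes lay within 1.5-fold of one another in both libraries, and with no replicates their order cannot be set against a spread.

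Genes around BIRC2 and BIRC3 on chromosome 11 also lay above 0. Among the 50 nearest other protein-coding genes whose mean reached 3 RPKM, 45 had a ratio above 0 and 5 below, with a median of 0.56. Of these 50, 3 were called higher and 0 lower, against 2.74% and 3.30% of all measured genes. The measured genes within 5 annotated places of the pair were YAP1, the Hippo pathway coactivator, at 26.3 RPKM in the RHCG library and 16.6 in the mock library (log2 ratio 0.63), and TMEM123, at 29.8 and 16.9 RPKM (0.78). The other 8 of these places, TRPC6 to CFAP300 on one side and MMP7 to MMP8 on the other, were listed at 0 in both libraries. A median of up to 50 neighbours was then taken off, counting the gene itself where its mean reached 3 RPKM. With this neighbour median removed BIRC2 was at 0.43 and BIRC3 at −0.28, so the call of BIRC2 ended and the sign of BIRC3 turned. The BIRC3 value rests on its mock level, listed at 0, being set to 1 RPKM.

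**Figure D3:**
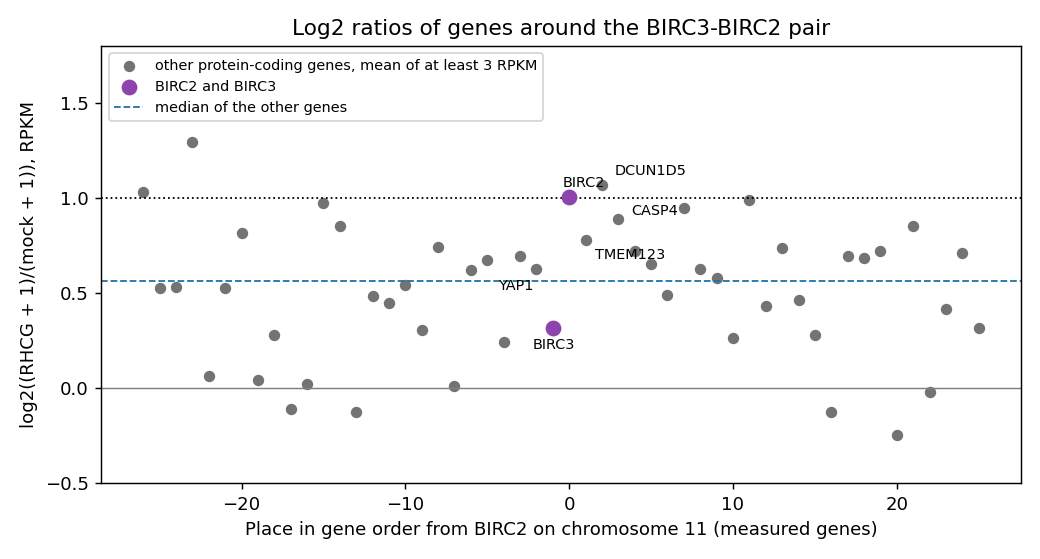
Log2 ratio of RHCG over mock for 50 protein-coding genes of chromosome 11 whose mean reached 3 RPKM and for BIRC2 and BIRC3 (BIRC3 is below that mean), placed by gene order from BIRC2 with no distance to scale. The dashed line is the median of the other genes, 0.56, BIRC2 lies at 1.01 among neighbours such as TMEM123 at 0.78, and the dotted line marks the 2-fold rule.

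BAX showed the same arrangement in the other direction. Of its 50 neighbours on chromosome 19, 8 lay above 0 and their median was −0.51, and with the neighbouring shift taken off BAX was at −0.17. BBC3, on the same chromosome, lay above 0 although its own neighbours had a median of −0.21 and 15 of 50 above 0, and it was at 0.76 with that shift removed, the highest of the 10. Neighbours of PMAIP1 (chromosome 18) had a median of 0.16, with 34 of 48 above 0, those of XIAP (chromosome X) 0.19 and those of BCL2L1 (chromosome 20) 0.16. Those of MCL1 (chromosome 1) were at −0.09, of BAK1 (chromosome 6) at −0.06 and of BID (chromosome 22, 30 neighbours) at −0.08. Copy number was not measured, and its part in these values was not tested.

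**Figure D4:**
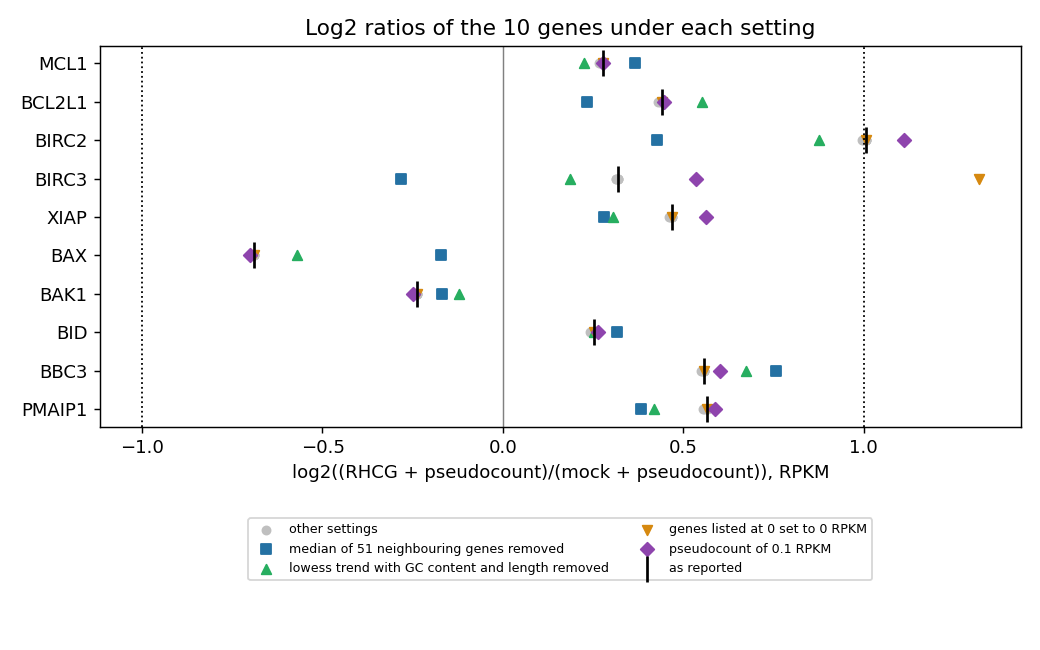
Log2 ratio of each of the 10 genes as reported (black bar) and under the 10 alternative settings, with dotted lines at the 2-fold rule. BIRC2 ranges from 0.43 to 1.11, BAX from −0.70 to −0.17, and BIRC3, listed at 0 in the mock library, from −0.28 to 1.32, while BID stays between 0.24 and 0.32.

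Other apoptosis genes were read from 11 lists of 79 genes, of which 62 were measured. Among these 1 was higher and 4 were lower by the 2-fold rule (1.61% and 6.45%, against 2.74% and 3.30% of all measured genes), 30 lay above 0 and 32 below, and the median was −0.04. The lists were described by counts and medians with no set test.

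Of the 4 other prosurvival BCL2 genes 2 were measured and 0 were called. BCL2L2, the gene of BCL-W, was at 23.7 RPKM in the RHCG library and 18.8 in the mock library (log2 ratio 0.32). BCL2, the founder of the family, was at 1.03 RPKM in the RHCG library and listed at 0 in the mock library, far below MCL1 and BCL2L1 per length. Of the 6 genes in the list of other BH3-only genes and BOK, 5 were measured, 0 were called and the median was −0.09. BCL2L11, the gene of BIM, was listed at 0 in both libraries. The most abundant were BAD, at 37.2 RPKM in the RHCG library and 39.8 in the mock library, and BIK, at 22.6 and 18.3 RPKM.

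Of 10 BCL2-related and BNIP genes 8 were measured, with a median of −0.07. BNIP3, a mitochondrial protein of mitophagy that hypoxia induces, was lower, at 15.6 RPKM in the RHCG library and 37.5 in the mock library (log2 ratio −1.21). The other BIR-domain genes measured were BIRC5, the mitotic protein survivin, at 49.2 RPKM in the RHCG library and 88.9 in the mock library (−0.84), and BIRC6, a large ubiquitin ligase, at 14.8 and 9.73 RPKM (0.56). Neither passed 2-fold, and they lay on opposite sides.

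Of 10 IAP antagonists and partners of the cIAPs 7 were measured, 0 were called and the median was −0.19. TRAF2, the adaptor that recruits the cIAPs to TNF receptors, was at 33.8 RPKM in the RHCG library and 42.7 in the mock library (−0.33), and DIABLO, which displaces IAPs from caspases, at 15.4 and 19.005 RPKM (−0.28). Both lay below 0.

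Of 9 apoptosome and caspase genes 8 were measured, 1 was lower and 0 higher, and the median was −0.15. Of 10 death receptor and adaptor genes 8 were measured, with 1 higher and a median of 0.02. That was TNFRSF10B, a TRAIL receptor, at 52.3 RPKM in the RHCG library and 20.1 in the mock library, a plain ratio of 2.60 and a log2 ratio of 1.34. Of the 4 inflammatory caspase genes of 11q22 only CASP4, the sensor of intracellular lipopolysaccharide, was measured, at 45.4 RPKM in the RHCG library and 24.04 in the mock library (0.89), 3 places from BIRC2 among the measured genes.

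Of 6 genes of the outer membrane channel and of BAX and BAK partners all were measured, 0 were called, and 5 lay below 0 with a median of −0.31. BCAP31 was at 174 RPKM in the RHCG library and 217 in the mock library, and VDAC1, the outer membrane channel, at 63.8 and 84.3 RPKM. The 6 genes listed for turnover of MCL1 and NOXA had a median of 0.25, with 4 above 0 and 0 called. Among them HUWE1, a ubiquitin ligase for MCL1, was at 22.9 RPKM in the RHCG library and 16.6 in the mock library, and UBE2K, a ubiquitin-conjugating enzyme, at 18.2 and 13.6 RPKM.

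Of 9 transcription factor genes that act on BBC3, PMAIP1 or BIM, 5 lay above 0 and 4 below, with a median of 0.17. Of the 9, 2 were called lower and 0 higher. E2F1, which drives S phase genes, was at 11.4 RPKM in the RHCG library and 28.9 in the mock library (−1.27), and TP73 at 1.33 and 3.75 RPKM (−1.03).

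**Figure D5:**
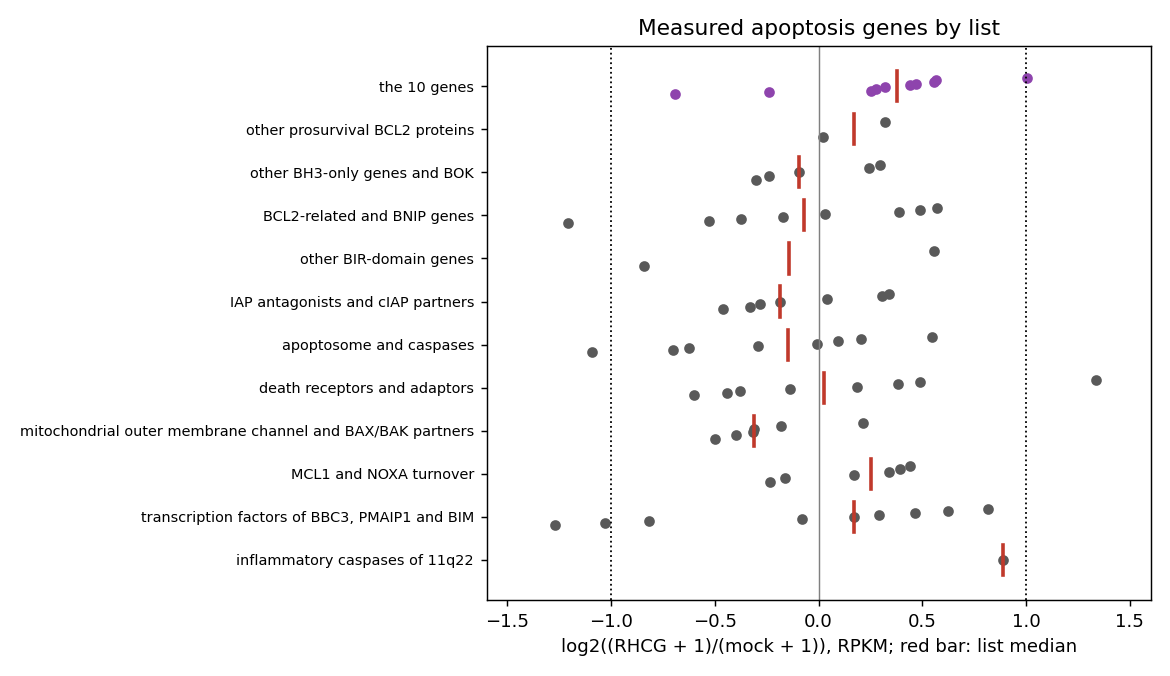
Log2 ratio of RHCG over mock for each measured gene (points, spread vertically for legibility), by list, with the list median as a red bar and dotted lines at the 2-fold rule. The 10 genes in the top row have a median of 0.38, and among the other lists TNFRSF10B at 1.34 is the only point past the upper line while 4 points lie past the lower one, BNIP3, E2F1 and TP73 among them.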

How the data were processed

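Ribosomal RNA was removed from total RNA with RiboMinus and barcoded Ion Torrent libraries were made, per the labels' protocols. The submitters' processing notes name hg19 and bedtools 2.25.0; no label or header names an aligner or counter. Per library, the authors deposited a file with a column headed RPKM, whose values are log2 of RPKM, as read from their range, with none below 0. A value of 0 may be 1 RPKM or less, no reads, or a gene not counted.

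Each table had 40448 rows; the 112 with a copy suffix were summed per Entrez gene. Values were unlogged, genes listed at 0 were set to 1 RPKM, and genes above 0 in at least 1 library, all with a mean of at least 1 RPKM, were called measured. RefSeq gave symbols for 94.2% of genes, and gene order on GRCh38; only the promoter windows carry coordinates. Depth came from whole-read steps of small RNA genes: 31.2% of 173 values under 20 reads in the RHCG library and 16.5% of 182 in the mock library lay within 0.002 of a whole number, so counts were not recovered. Read numbers used the longest GENCODE 29 transcript matched to RefSeq and are approximate. Alternatives numbered 10. The ratio rule was tested on simulated data.

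Members and lists were chosen with earlier results of these data known. Named were all members, RHCG, up to 4 called genes of each list (or its 2 most abundant), and measured neighbours within 5 places of BIRC3 and BIRC2; 1 gene that this rule names is not reported here. BCL2L11, BOK and the cell type markers singled out from their lists were named after their values were seen. With 2 libraries no likeness across samples was measured. Figures were drawn with matplotlib 3.10.9, trends fitted with statsmodels 0.14.6 and intervals computed with scipy 1.17.1, under pandas 2.3.3, numpy 2.4.6 and Python 3.11.15.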

Additional observations from a re-analysis of the deposited data

How the results depend on the processing

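No paired analysis was possible because each group held a single library, and neither could be dropped. Of 98 log2 ratios of the 10 genes with another setting, 83 stayed within counting error of the reported value (within 0.1 for BIRC3, which has no interval) and 15 did not. Many of the 83 could not move. The 2 filter settings, the 1.5-fold rule and the use of the highest row per gene leave the ratios of these genes as they are. Setting genes listed at 0 to 0 RPKM alters BIRC3 alone. BIRC2 was the 1 gene called higher, and 0 of the 10 were with median-of-ratios scaling, trimmed mean scaling, the GC and length trend removed, or the neighbour median removed; the scalings shifted all genes by 0.007 and 0.010 on the log2 scale. With genes listed at 0 set to 0 RPKM, 2 were higher, BIRC3 (1.32) being the other, by construction. With the 1.5-fold rule 1 was lower, BAX. With a pseudocount of 0.1 RPKM BIRC3 was at 0.53.

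With the neighbour median removed MCL1 was at 0.37, BCL2L1 at 0.23, BIRC2 at 0.43, BIRC3 at −0.28, XIAP at 0.28, BAX at −0.17 and PMAIP1 at 0.38. With the GC and length trend removed MCL1 was at 0.22, BCL2L1 at 0.55, BIRC3 at 0.19, XIAP at 0.31, BAX at −0.57 and PMAIP1 at 0.42. The sign of BIRC3 alone changed, under the neighbour setting, and the cause was not tested. That value rests on a mock level set to 1 RPKM, so it does not place BIRC3 below its neighbours. A mean of at least 5 RPKM left out BIRC3 and XIAP. Among all genes 352 higher and 424 lower became 533 and 673 at a pseudocount of 0.1 RPKM, 686 and 1004 where a listed 0 stayed at 0 RPKM, 1447 and 1481 under the 1.5-fold rule, all looser by construction, and 204 higher with the neighbour median removed, which also left out genes that are not protein-coding.

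List medians without a filter, which adds genes at 0, were 0.012 for the other prosurvival genes, −0.0071 for caspases and 0 for the other BIR-domain genes, the IAP partners and the 11q22 caspases. With a mean of at least 5 RPKM they were 0.32 for prosurvival, 0.24 for other BH3-only, 0.044 for caspase, 0.28 for death receptor and 0.29 for transcription factor genes, of which 1 was then lower. With genes listed at 0 set to 0 RPKM the prosurvival median was 0.67, with 1 gene higher, and 1 death receptor gene was lower. With the neighbour median removed the BNIP list was at 0.18, other BIR-domain genes at −0.23, IAP partners at 0, membrane channel genes at −0.21 and 11q22 caspases at 0.31, and 1 transcription factor was higher. With the trend removed 1 transcription factor was lower. With a pseudocount of 0.1 RPKM 2 caspase genes were lower. With the 1.5-fold rule 3 caspase genes, 1 BIR-domain gene and 1 death receptor gene were lower, 3 transcription factors were lower and 2 higher, and 1 caspase gene of 11q22 was higher. No called value turned its sign. The floor of the tables at 1 RPKM limits BIRC3, since a listed 0 cannot separate a low level from none.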
